A study of Mus musculus with 12 samples.

Results

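MHC class I antigen presentation was described through 10 genes, which were followed by symbol through all 12 single-cell RNA libraries of the study, out of 31054 features listed for the treated libraries and 31053 for the naive ones. They were the light chain B2m, the heavy chains H2-K1, H2-D1, H2-Q7 and H2-T23, the peptide transporter subunits Tap1 and Tap2, tapasin (Tapbp), and the inducible proteasome subunits Psmb8 and Psmb9. All 10 were found, and all 10 passed the filter on low counts in every comparison. Their levels are given as CPM, in which the UMIs summed over the kept cells of a library are scaled to the same total in each library. A barcode was kept as a cell when it had 200 genes or more and when no more than 10% of its UMIs were mitochondrial.

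C57BL/6J recipients were conditioned with busulfan and received Lin- bone marrow cells of male donors carrying a lentiviral GFP vector, either into the blood (i.v.) or into a lateral ventricle (i.c.v.), and all of them also received untransduced total bone marrow i.v. afterwards. For each route 1 female and 1 male were taken, i.v. mice 2 and 27 and i.c.v. mice 4 and 19, 12 to 13 months after dosing, although the age label of these libraries reads 22 to 28 weeks. CD45+ CD11b+ CX3CR1+ brain cells of each mouse were sorted into GFP+ microglia-like cells (MLCs) and GFP- endogenous microglia, so that each mouse gave 1 library of each sort. Since untransduced marrow was given to every recipient, a GFP- cell need not be of host origin. A single naive C57BL/6J mouse, aged 12 weeks in the series description and 8 to 12 weeks in the sample labels, gave 1 library each of microglia, neurons, astrocytes and peripheral blood mononuclear cells (PBMCs), which carry no replicate check.

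The filter kept 30775 cells, with 2266 to 3536 cells and 8835197 to 16514669 UMIs in the MLC libraries and 2675 to 4555 cells and 4970758 to 8105756 UMIs in the GFP- libraries. Median UMIs per cell ranged from 1058 to 3499 in MLCs and from 842 to 1034 in GFP- cells. No more than 8 barcodes were shared between any 2 libraries. Summed microglia markers reached 4438 to 8847 CPM in MLCs and 9312 to 12657 CPM in GFP- cells, so both sorts carried them, and 5 of 8 were called lower in MLCs. Border macrophage markers summed to 2021 to 2669 CPM in MLCs and 881 to 1591 CPM in GFP- cells, without overlap, and 3 of 8 were called higher and 1 lower in MLCs. Cells with markers of other lineages made up 7.33% and 7.86% of the i.v. MLC libraries and 1.14% to 2.82% of the other 6 treated libraries. Neutrophil markers summed to 1612 and 3246 CPM in i.v. MLCs, 0 and 0.275 CPM in i.c.v. MLCs, and 55.3 to 5937 CPM in GFP- libraries, and to 9224 CPM in the naive microglia.

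Class I molecules show peptides of a cell's own proteins to CD8 T cells and to receptors of natural killer cells. Peptides are cut by the proteasome, in which inducible subunits can replace the constitutive catalytic ones, carried into the endoplasmic reticulum by the Tap1-Tap2 transporter, and loaded with the help of tapasin onto a heavy chain bound to beta-2-microglobulin. Interferons raise most of these genes, and in the healthy brain microglia are among the cells that carry class I transcripts.

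All of the genes but B2m lie within the major histocompatibility complex on chromosome 17, and B2m lies on chromosome 2. On GRCm38, the build of the deposited tables, H2-K1 spans chr17:33996017-34000347 on the minus strand and H2-D1 spans chr17:35262730-35267499 on the plus strand. Psmb9 (chr17:34181987-34187764, minus strand), Tap1 (chr17:34187553-34197225, plus), Psmb8 (chr17:34197721-34201454, plus) and Tap2 (chr17:34203527-34216321, plus) are neighbors. Psmb9 and Tap1 overlap at their 5′ ends, antisense genes overlap Tap2, Tapbp, Psmb8 and H2-T23, and Patl2 overlaps B2m on the other strand. H2-K1, H2-D1, H2-Q7 and H2-T23 belong to a family with near-identical stretches, so that the split of reads among these heavy chains is uncertain.

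RefSeq promoters (GRCm38.p6, 250 bases before to 50 after a start site) were found for 9 of the 10 genes, all but Tap2. The search for 3 motifs ran on both strands: the core of the interferon-stimulated response element (ISRE), spelled TTTC, any 2 bases and TTTC, the gamma-interferon-activated site (GAS), TTCNNNGAA, and an NF-kB site, spelled GGGA, any 4 bases and CC. The ISRE core matched in B2m and H2-T23, 2 of 9 members, against 3.44% of 32851 promoters. It also matched in only 7 of 13 promoters of the interferon-stimulated genes listed below. A promoter without a match can therefore still hold a response element. The stretches of H2-K1, H2-D1 and H2-Q7 hold TTTCACTTCT, which these exact letters leave out. The NF-kB letters matched in B2m, H2-K1, H2-D1 and H2-Q7, 4 of 9 members, against 20.7% of promoters. The GAS letters matched in Psmb8 alone among the members, against 8.30% of promoters. The stretches of 60 bases around the matches are shown so that the light chain and the heavy chains can be compared, with ISRE core and NF-kB matches in capitals, 5′ to 3′ on the strand of each gene. In B2m the ISRE core match ends 2 bases before the NF-kB match, and the capitals of NF-kB are matches on both strands that overlap, save in H2-Q7, where 1 strand matched.
B2m, chr2:122147533-122147592, plus strand: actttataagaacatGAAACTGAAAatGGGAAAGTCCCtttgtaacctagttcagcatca
H2-K1, chr17:34000414-34000473, minus strand: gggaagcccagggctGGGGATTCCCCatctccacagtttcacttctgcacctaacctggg
H2-D1, chr17:35262908-35262967, plus strand: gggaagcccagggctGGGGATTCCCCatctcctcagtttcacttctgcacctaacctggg
H2-Q7, chr17:35439007-35439066, plus strand: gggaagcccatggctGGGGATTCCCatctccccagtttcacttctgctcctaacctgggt
H2-T23, chr17:36032781-36032840, minus strand: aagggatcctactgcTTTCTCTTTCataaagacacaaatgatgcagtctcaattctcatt
The stretches of H2-K1 and H2-D1 were identical at 59 of 60 positions.

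Tap1 and Psmb9 are read in opposite directions from RefSeq start sites 226 bases apart. The stretch between the starts is shown on the plus strand because it lies between the RefSeq starts of a gene that was called between the sorts (Psmb9) and one that was not (Tap1). The spans given above are those of GENCODE, whose starts differ from RefSeq's, so that this stretch lies inside the printed span of Psmb9, and those of H2-D1 and H2-T23 lie inside their own. It holds no match to the 3 motifs and so has no capitals.
Tap1 and Psmb9, chr17:34187330-34187556: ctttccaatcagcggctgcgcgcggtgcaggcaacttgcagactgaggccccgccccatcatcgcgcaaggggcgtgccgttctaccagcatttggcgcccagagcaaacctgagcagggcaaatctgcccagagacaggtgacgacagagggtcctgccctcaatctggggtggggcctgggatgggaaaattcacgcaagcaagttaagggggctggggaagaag

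Summed over all kept cells, MLCs carried more class I transcripts than endogenous microglia of the same mice. The 10 genes together made up 7436 and 6854 CPM in MLCs of i.v. mice 2 and 27 and 5559 and 5996 CPM in MLCs of i.c.v. mice 4 and 19, against 4932, 4718, 5226 and 4678 CPM in the GFP- cells of mice 2, 27, 4 and 19. Every MLC library lay above every GFP- library. Counts were summed per library, scaled by the trimmed mean of M values (TMM), and 4 MLC libraries were compared with 4 GFP- libraries by edgeR's quasi-likelihood test with Benjamini-Hochberg adjustment over 11756 genes, a gene being called at an adjusted p under 0.05. Of the 10 members, 7 were called higher in MLCs and 0 lower, where 16.6% of all genes tested were called higher and 15.9% lower. These calls moved with depth per cell: 1 member was called after every cell was thinned to 500 UMIs and 0 in cells with under 2000 UMIs, where B2m, Psmb8 and H2-T23 had negative values. Microglia and border macrophage markers moved with the sorts as given above, and their part in the result was not tested. The median log2 fold change of the members was 0.67, against 0.01 over all genes.

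The light chain B2m, which every class I heavy chain needs to reach the surface, stood at 2862, 2412, 2259 and 2291 CPM in MLCs of mice 2, 27, 4 and 19. The GFP- cells of these mice held 1997, 1665, 1981 and 1765 CPM. The groups did not overlap, and the log2 fold change was 0.69 ± 0.15 (SE, n = 4 and 4, edgeR adjusted p = 0.00962).

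H2-D1, a classical heavy chain, was measured at 1957, 1925, 1406 and 1571 CPM in MLCs and at 1136, 1173, 1363 and 1143 CPM in GFP- cells of mice 2, 27, 4 and 19. The groups did not overlap, but the lowest MLC library and the highest GFP- library, both from i.c.v. mouse 4, were close. The log2 fold change was 0.80 ± 0.17 (edgeR adjusted p = 0.00962). H2-K1, the other classical heavy chain, reached 1252, 1341, 980.4 and 1159.8 CPM in MLCs and 859, 958, 965 and 913 CPM in GFP- cells. Again all MLC libraries lay above all GFP- libraries, with mouse 4 nearly level, and the log2 fold change was 0.65 ± 0.15 (edgeR adjusted p = 0.0125).

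The non-classical heavy chains were lower in level and less separated. H2-T23, which encodes Qa-1, the ligand of the natural killer receptor Cd94-Nkg2a, stood at 428, 326, 249 and 287 CPM in MLCs and 284, 262, 260.1 and 249.7 CPM in GFP- cells. The groups overlapped, and the log2 fold change was 0.58 ± 0.18 (edgeR adjusted p = 0.0364). H2-Q7, a gene of the Qa-2 group, had 109, 142, 86.9 and 105 CPM in MLCs and 57.3, 102, 94.0 and 73.5 CPM in GFP- cells. These groups overlapped too, mouse 4 was lower in its MLCs, and the log2 fold change was 0.73 ± 0.22 (edgeR adjusted p = 0.0343). With the mouse as a block, H2-T23 was no longer called (0.54, edgeR adjusted p = 0.0611), and 6 members were, where 12.4% of genes were called higher. Leaving out 1 library at a time, H2-Q7 was called only without the MLCs or the GFP- cells of mouse 4, and otherwise had an edgeR adjusted p of 0.0525 to 0.0875. H2-T23 was called only without the MLCs of mouse 4 or of mouse 19, and otherwise had an edgeR adjusted p of 0.0546 to 0.0983.

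The transporter subunits and tapasin were not called between the sorts. For Tap1 this does not show a difference from the heavy chains, since its SE range overlapped that of H2-T23 (0.58 ± 0.18). Tap1 was measured at 63.5, 57.3, 46.0 and 39.6 CPM in MLCs and 53.9, 45.4, 45.0 and 42.9 CPM in GFP- cells, with overlap, and its log2 fold change of 0.44 ± 0.17 was not called (edgeR adjusted p = 0.0775), although it was without the MLCs of mouse 19 (0.55, edgeR adjusted p = 0.0322). Its partner Tap2 stood at 70.2, 71.7, 65.1 and 66.0 CPM in MLCs and 96.6, 101, 71.4 and 88.3 CPM in GFP- cells. In every mouse the MLCs held less, yet the log2 fold change after TMM scaling was -0.09 ± 0.11 (edgeR adjusted p = 0.548). Tapbp, which holds empty class I molecules at the transporter, had 143, 139, 134 and 141 CPM in MLCs and 155, 166, 144 and 149 CPM in GFP- cells, and its log2 fold change after scaling was 0.15 ± 0.09 (edgeR adjusted p = 0.231).

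The inducible proteasome subunits differed most. Psmb8 (LMP7) stood at 385, 317, 228 and 235 CPM in MLCs of mice 2, 27, 4 and 19 and at 209, 177, 215 and 183 CPM in their GFP- cells. Psmb9 (LMP2) had 167, 123, 103 and 100.4 CPM in MLCs and 83.5, 68.5, 87.5 and 71.7 CPM in GFP- cells. Neither gene overlapped between the sorts, and both were highest in the MLCs of the i.v. mice. The log2 fold changes were 0.86 ± 0.21 for Psmb8 (edgeR adjusted p = 0.0131) and 0.96 ± 0.20 for Psmb9 (edgeR adjusted p = 0.00813).

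**Figure D1:**
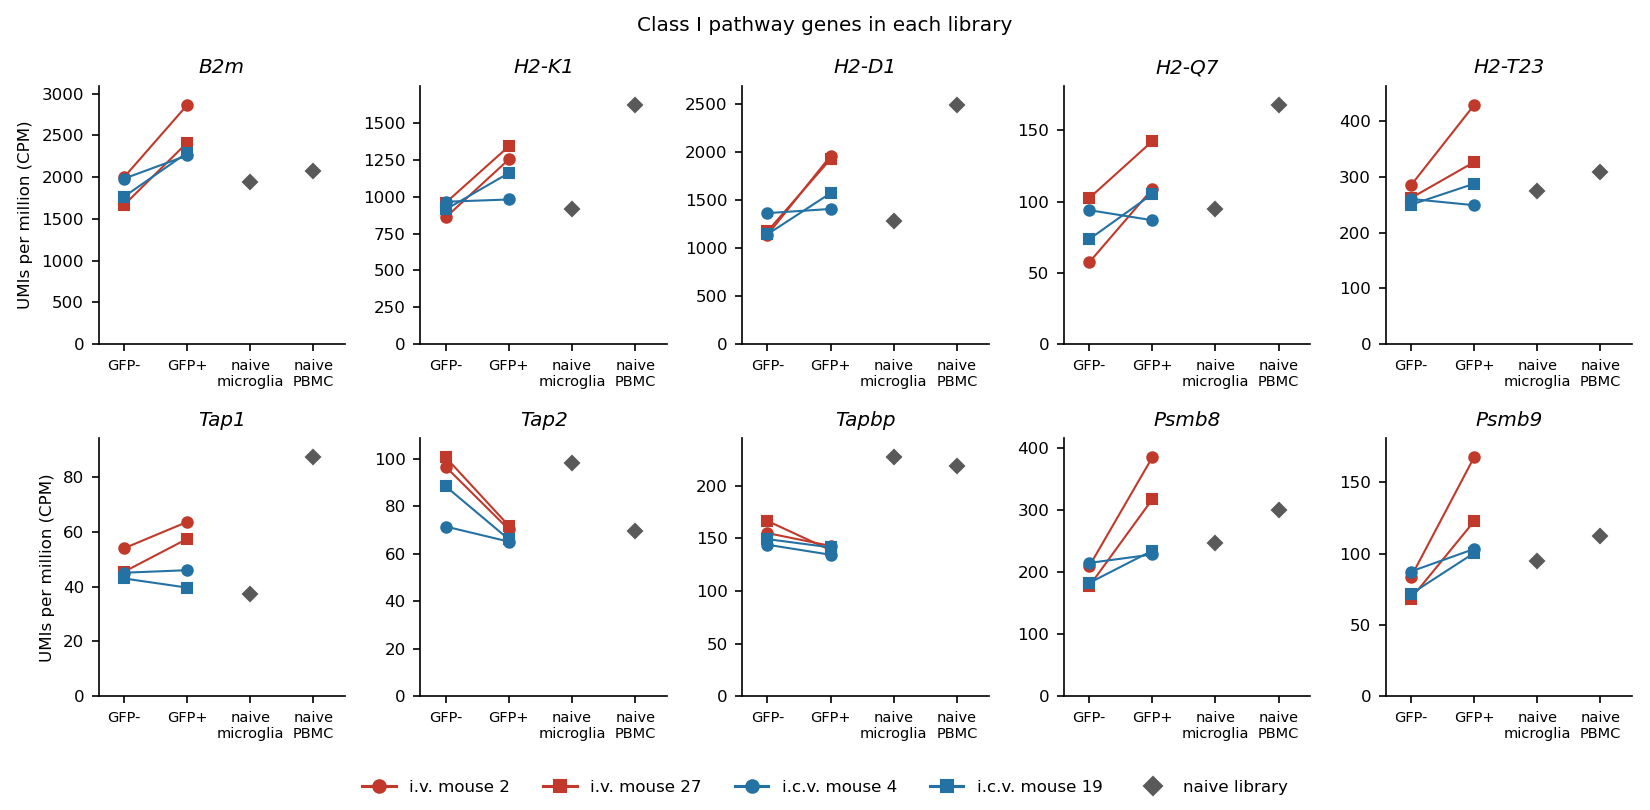
CPM of each of the 10 genes in every treated library and in the naive microglia and PBMC libraries; lines join the GFP- and GFP+ cells of 1 mouse. B2m, H2-K1, H2-D1, Psmb8 and Psmb9 rise along all 4 lines without overlap between the sorts, whereas Tap2 and Tapbp fall along all 4.

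In plain CPM, 5 members lay above in every MLC library (B2m, H2-K1, H2-D1, Psmb8 and Psmb9), against 6.29% of all genes tested, and 1 lay below in every MLC library (Tapbp), against 32.6% of genes. This imbalance over all genes moved with the scaling: TMM factors ran from 0.859 to 0.967 in MLCs and from 1.04 to 1.16 in GFP- cells. Without scaling factors the median log2 fold change of all genes was -0.27, and 5 members were called higher and 1 lower, where 6.55% of genes were called higher and 32.3% lower. The direction of Tapbp turned (log2 fold change -0.14, edgeR adjusted p = 0.256) and Tap2 was called lower (-0.39, edgeR adjusted p = 0.0300), while B2m, H2-K1, H2-D1, Psmb8 and Psmb9 were called higher, by 0.36 to 0.67. Tap1, H2-Q7 and H2-T23 had values of 0.14, 0.44 and 0.29 without being called.

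The size of the difference was set side by side with the route. In i.v. mice, 8 of the 10 members were higher in MLCs (all but Tap2 and Tapbp), where 18.9% of genes were called higher and 17% lower, with log2 fold changes from 0.67 ± 0.14 for Tap1 to 1.32 ± 0.19 for Psmb9 (edgeR adjusted p from 0.0012 to 0.0195). H2-Q7 was lost there without the GFP- cells of mouse 2 (0.73, edgeR adjusted p = 0.0876) or the MLCs of mouse 27 (0.83, edgeR adjusted p = 0.0796). In i.c.v. mice 0 of the 10 were called in either direction, where 1.34% of genes were called higher and 4.43% lower. The i.c.v. log2 fold changes ran from -0.11 for Tap2 to 0.52 ± 0.19 for Psmb9 (edgeR adjusted p from 0.168 to 0.738). In this contrast 5 members had an unadjusted p under 0.05 there and DESeq2 called 0. With the mouse as a block Psmb9 was called (0.53, edgeR adjusted p = 0.0365), where 3.65% of genes were called higher.

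The routes themselves were compared between 2 and 2 libraries in the fit to all 8. Among MLCs 0 members were called between the routes, against 2.56% of genes called higher after i.v. dosing and 0.215% lower. In plain CPM, i.v. MLCs nevertheless lay above i.c.v. MLCs in every library for 9 of the 10 genes, against 15.2% of genes, Tapbp being the exception. The largest values were 0.71 ± 0.17 for Psmb8 (edgeR adjusted p = 0.0711), 0.62 ± 0.19 for Psmb9 (adjusted p = 0.151) and 0.61 ± 0.14 for Tap1 (adjusted p = 0.0673). An unadjusted p under 0.05 was found for 6 members, and DESeq2 called Psmb8 and H2-T23, where it called 2.12% of genes higher. Among GFP- cells 0 members were called between the routes, 0% of all genes were called in either direction, no member had an unadjusted p under 0.05, and DESeq2 called 0 members.

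Whether the sort difference itself depended on the route was tested as an interaction. No member was called (0 of 10, against 1.8% of genes called higher and 0.112% lower), with estimates from 0.03 for Tap2 to 0.86 ± 0.24 for Psmb8 (edgeR adjusted p from 0.108 to 0.960 over the members). In this test 6 members had an unadjusted p under 0.05. DESeq2 called Psmb8 (0.87, adjusted p = 0.0321), where it called 2.58% of genes higher. With the mouse as a block, 2 members were called, Psmb8 (0.85, edgeR adjusted p = 0.0388) and Psmb9 (0.78, adjusted p = 0.0466), where 4.85% of genes were called higher. The proteasome subunits were therefore called only in the paired fit and, for Psmb8, by DESeq2.

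**Figure D2:**
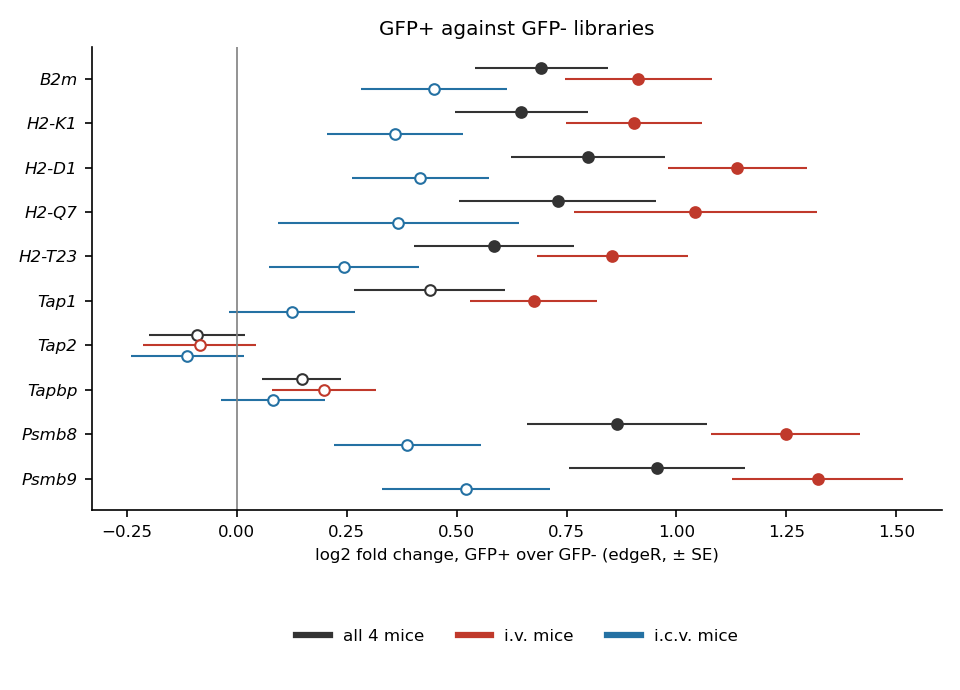
Log2 fold change of MLCs over endogenous microglia with its SE (edgeR, x axis) for each gene, over all 4 mice, in the 2 i.v. mice and in the 2 i.c.v. mice; filled points have an adjusted p under 0.05. The i.v. estimates of 8 genes are filled and no i.c.v. estimate is, and the interaction called 0 of 10 genes.

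The level of the genes also moved with the number of UMIs in a cell. Cells with at least 2000 UMIs made up 31.4% to 60.5% of MLC libraries and 11.4% to 19.0% of GFP- libraries. Those with 5000 or more gave 75.4 ± 4.06% of the UMIs in MLC libraries and 41.8 ± 6.89% in GFP- libraries (SD, n = 4 and 4). In cells with under 1000 UMIs the 10 genes summed to 3563 ± 576 CPM in MLCs and 4443 ± 485 CPM in GFP- cells (SD, n = 4 and 4), and the libraries overlapped. MLCs of mice 2, 27, 4 and 19 stood at 3218, 3476, 3156 and 4401 CPM there. Their GFP- cells stood at 3794, 4759, 4864 and 4356 CPM, so that MLCs were lower within mice 2, 27 and 4. In cells with 1000 or more but under 2000 UMIs the sum was 4413 ± 1129.9 CPM in MLCs and 3633 ± 98.3 CPM in GFP- cells, again with overlap. In cells with 2000 or more but under 5000 UMIs the sum was 6578 ± 507 CPM in MLCs and 4588 ± 377 CPM in GFP- cells, and every MLC library, from 6059.8 CPM, lay above every GFP- library, up to 5007 CPM. In cells with 5000 UMIs or more it was 6900.4 ± 799 and 5877 ± 385 CPM, and the libraries overlapped, so that they were separate in 1 of the 4 depth groups. Malat1, a nuclear RNA, stood at 24668 CPM in MLCs and 24380.3 CPM in GFP- cells of at least 5000 UMIs, and at 97071 and 70551 CPM in those with under 1000.

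The fits were repeated within depth ranges chosen after seeing the data. In cells with at least 2000 UMIs, 4 members were called higher in MLCs (H2-K1, H2-D1, Psmb8 and Psmb9, by 0.57 to 0.65), where 4.94% of genes were called higher. The members' median log2 fold change was 0.53 in this fit, and 9 had an unadjusted edgeR p under 0.05. In cells with under 2000 UMIs, 0 members were called by edgeR, where 8.72% of genes were called higher, and 2 members had an unadjusted p under 0.05. There the members' median log2 fold change was 0.04, B2m had a value of -0.17 and H2-T23 of -0.30. After every cell was thinned to 500 UMIs, which all kept cells of the treated libraries had, only Psmb9 was called (0.84 ± 0.24, edgeR adjusted p = 0.0319), where 6.19% of genes were called higher.

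Counted per cell, class I UMIs per 1000 UMIs at 500 drawn UMIs averaged 6.16, 5.09, 4.25 and 5.02 in MLCs of mice 2, 27, 4 and 19, and 4.02, 4.53, 4.75 and 4.26 in their GFP- cells. The groups overlapped, and MLCs of mouse 4 lay below its GFP- cells. At 1000 drawn UMIs, which leaves out cells with fewer, the values were 7.19, 6.08, 5.11 and 5.35 in MLCs and 4.16, 4.01, 4.37 and 4.03 in GFP- cells, without overlap. At 500 UMIs 12.3% to 18.0% of MLCs and 12.8% to 19.2% of GFP- cells had no UMI of the 10 genes, and 91.9% of cells of the naive neuron sort had none. The part that depth per cell has in the difference between the sorts was not tested beyond these fits.

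**Figure D3:**
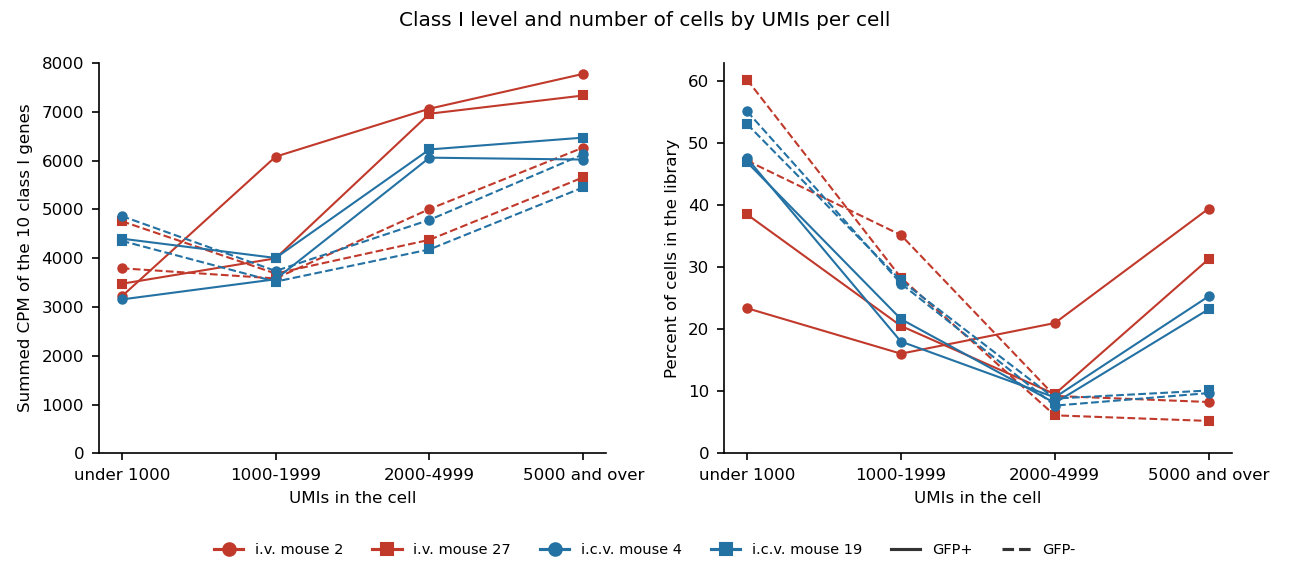
Left, summed CPM of the 10 genes in cells grouped by UMIs per cell; right, the percent of each library's cells in each group; solid lines are GFP+ libraries and dashed lines GFP- libraries. From 2000 to under 5000 UMIs all MLC lines lie above all GFP- lines, below 1000 UMIs they overlap, and MLC libraries hold more cells of 5000 UMIs or more. Below 1000 UMIs the MLC lines of mice 2, 27 and 4 lie under the GFP- lines of the same mice.

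The inducible proteasome was also read against its constitutive counterpart, a ratio that does not depend on the scaling. UMIs of Psmb8, Psmb9 and Psmb10 were divided by those of Psmb5, Psmb6 and Psmb7, the catalytic subunits they replace. The log2 ratio was 1.15, 1.11, 0.86 and 0.87 in MLCs of mice 2, 27, 4 and 19 and 0.67, 0.57, 0.68 and 0.49 in GFP- cells. The mean was 0.999 ± 0.15 in MLCs and 0.60 ± 0.09 in GFP- cells (SD, n = 4 and 4), or linear ratios of 2.00 and 1.52, and it was higher in MLCs in 4 of 4 mice. The difference of 0.40 gave p = 0.0286 in a two-sided exact permutation test, the smallest p that 4 against 4 libraries allow. Over the sum and the 3 single pairs, which all gave this p, the Benjamini-Hochberg value of the exact test was also 0.0286. Psmb8 over Psmb5 differed by 0.34, Psmb9 over Psmb6 by 0.42 and Psmb10 over Psmb7 by 0.43 on the log2 scale. In cells with under 2000 UMIs the difference was 0.15 (exact permutation p = 0.371). Over the 4 within-mouse differences an exact sign-flip permutation gave p = 0.125, the smallest it can give.

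**Figure D4:**
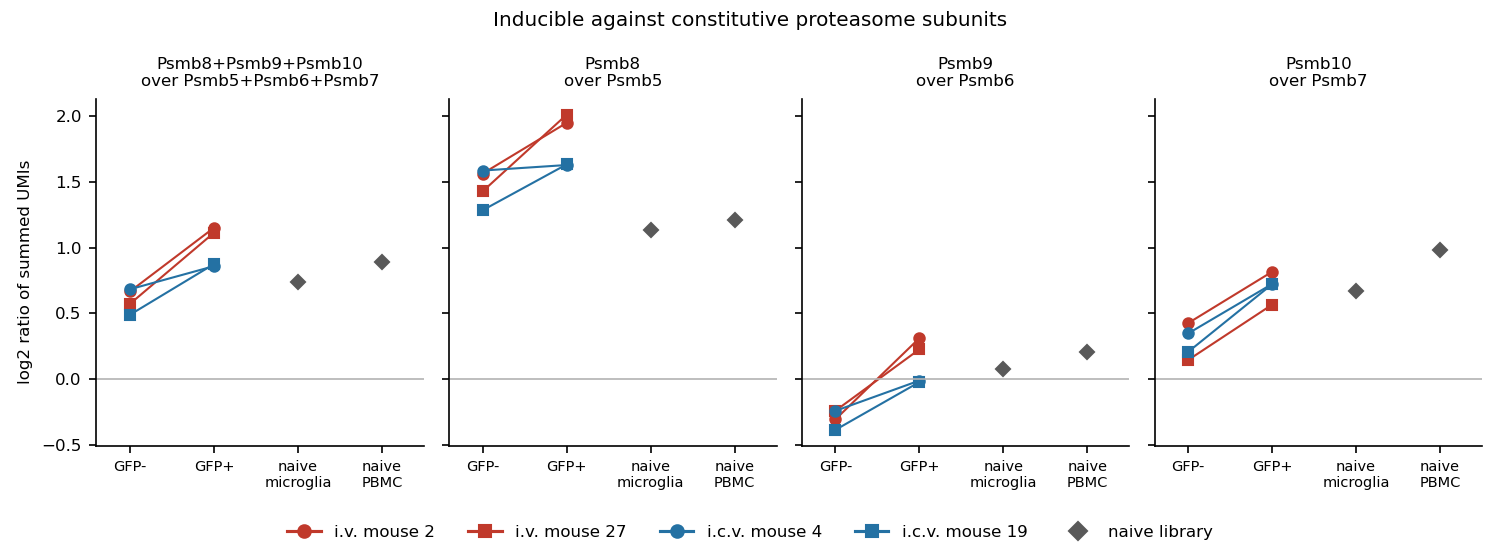
Log2 ratio of UMIs of inducible over constitutive proteasome subunits (y axis) per library, summed and for each of the 3 catalytic pairs, with lines joining GFP- and GFP+ cells of 1 mouse. All 4 lines rise in each panel, and the naive microglia and PBMC libraries stand at 0.73 and 0.89 for the sum.

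Genes around the 10 members were read from lists, in the comparison of the sorts, where 16.6% of all genes were called higher and 15.9% lower. In lists of 8 to 12 genes of which 2 or 3 were called higher, the share is not far above this background, and all counts are given as a description. The partners of the inducible proteasome were called higher in 3 of 3 cases, namely the activator subunits Psme1 (log2 fold change 0.70) and Psme2 (0.78) and the catalytic subunit Psmb10 (0.51). Of 14 constitutive proteasome subunits, 10 were also called higher, among them Psmb2 (0.71), Psmb1 (0.65), Psma2 (0.54) and Psmb4 (0.45). Of 10 further class I and class I-like genes in the tables, 3 were higher (H2-M3, 0.78, H2-T22, 0.74, and H2-Q4, 0.43) and 0 lower, and H2-Q6, close in sequence to H2-Q7, had 0.49 (edgeR adjusted p = 0.116). Of 8 genes of folding and peptide trimming, the translocon subunit Sec61b (0.83) and the disulfide isomerase Pdia3 (0.37) were higher and Sec61a1 (-0.43) was lower, and the tapasin relative Tapbpl had 0.21 (edgeR adjusted p = 0.0878).

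Upstream of the members, 3 of 12 transcriptional regulators were called, all higher, among them Nlrc5, the class I transactivator (1.03), and Rfxap (0.37), while Irf9 had 0.34 (edgeR adjusted p = 0.0807). Of 9 tested genes of interferons and their signaling, the receptor chains Ifnar1 (0.79), Ifnar2 (0.62) and Ifngr2 (0.35) were higher and the kinase Tyk2 (-0.33) was lower. Of 16 interferon-stimulated genes, 14 were higher and 0 lower, those with the smallest p being Ifi44 (2.26), Rsad2 (1.76), Oasl1 (1.54) and Oasl2 (1.28). Of 4 tested receptors on myeloid cells, Lilrb4a (1.27) and Lilra5 (0.70) were higher, Lrp1 (-0.59), a receptor for calreticulin, was lower, and Pira2 had 1.39 (edgeR adjusted p = 0.229). Lilrb3, also listed, was not found by symbol, and these values do not show which of the receptors bind class I. The class II chains H2-Aa, H2-Ab1 and H2-Eb1 had log2 fold changes of 1.86 to 1.98 and none was called (edgeR adjusted p from 0.133 to 0.151). This pools routes that differed. In i.v. mice 3 of 3 were called higher (median 3.11), against 18.9% of genes. In i.c.v. mice 0 were called (median -1.36), and the interaction called 3 of 3 (median 4.47), against 1.8% of genes.

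To see how the members vary among cells of 1 library, cells that carried interferon-stimulated transcripts were set against the rest. A cell was placed in this class if at least 3 of 500 drawn UMIs came from the 16 interferon-stimulated genes, none of which is a member. The class held 346 of 27439 cells, 17 to 92 per library, or 0.549% to 3.001% of cells, and 196 of them lay at the threshold itself. Sums of class and other cells were compared over 8 libraries with the library as a block. Since each mouse gave 2 of these libraries, p-values over 8 libraries can be too small for 4 mice. In the class 8 of the 10 members were higher and 0 lower, where 3.88% of genes were called higher and 4.22% lower. With no replicate block 4 members were called, where 2.27% of genes were called higher. At a threshold of 5 UMIs, which left 4 libraries, 3 members were called, against 2.49% of genes. The class cells were deeper than the others in 8 of 8 libraries. Median UMIs were 4666 against 1287 in MLCs of mouse 27 and 979.5 against 954 in GFP- cells of mouse 19. Among cells with at least 2000 UMIs, which also left 4 libraries, 10 members were called higher, against 3.83% of genes. The part of depth in this contrast was not tested further.

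Tap1 had the largest value, a log2 fold change of 1.25 ± 0.18 (edgeR adjusted p = 1.85e-07), with 104 ± 48.0 CPM in the class and 47.8 ± 7.04 CPM in the other cells (SD, n = 8), higher in 7 of 8 libraries. Its class values rest on few UMIs, 110, 61, 6 and 24 in MLCs of mice 2, 27, 4 and 19. In their GFP- cells they rest on 4, 6, 16 and 5 UMIs. The ratio of class to other cells ran from 0.846 to 3.79 over the libraries. H2-T23 had 558 ± 224 against 286 ± 53.7 CPM and Psmb9 184 ± 75.0 against 98.4 ± 30.1 CPM, both with a log2 fold change of 0.98. B2m, at 2971 ± 436 against 2135.5 ± 378 CPM, was higher in 8 of 8 libraries, with a log2 fold change of 0.52 ± 0.13. Tap2 (0.47, adjusted p = 0.0802) and Tapbp (0.36, edgeR adjusted p = 0.178) were not called. In this class monocyte markers were higher for 4 of 5 tested and microglia markers lower for 8 of 8, and their part in the result was not tested. In GFP- libraries alone 3 members were called (H2-K1, H2-T23 and Psmb8), where 2.10% of genes were called higher. In MLC libraries alone 8 members were called, where 4.02% of genes were called higher. The class held 101 GFP- cells and 245 MLCs. The members' median log2 fold change was 0.72 in GFP- libraries alone and 0.63 in MLC libraries alone, so the counts do not show a smaller difference in GFP- cells.

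Cells rich in class II transcripts gave a second contrast. This class held cells with at least 3 of 500 drawn UMIs from H2-Aa, H2-Ab1 and H2-Eb1, which were 25.5% and 23.9% of MLCs of i.v. mice 2 and 27, 1.03% and 4.98% of MLCs of i.c.v. mice 4 and 19, and 1.68% to 6.20% of GFP- cells. Against the other cells of the same libraries, 9 of the 10 members were higher in the 2202 class cells and 0 lower, where 20.3% of genes were called higher and 22.2% lower. H2-D1 stood at 2091 ± 232 CPM in the class and 1358 ± 265 CPM outside it (SD, n = 8), higher in 8 of 8 libraries, with a log2 fold change of 1.003 ± 0.15 (edgeR adjusted p = 4.95e-05). Psmb8 (376 ± 85.1 against 217 ± 46.0 CPM), H2-T23 (436 ± 67.2 against 267 ± 36.5 CPM) and Tap1 (65.6 ± 14.3 against 44.5 ± 4.11 CPM) were likewise higher in 8 of 8 libraries. So were H2-K1 and Psmb9. In plain CPM, B2m and H2-Q7 were higher in 6 of 8 libraries, each in 2 of 4 MLC libraries, and Tap2 in 3 of 8. In MLCs of mouse 2, B2m stood at 2779 CPM in the class and 2919 CPM outside it.

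Tapbp again stood apart, with 131 ± 10.1 CPM in the class and 149 ± 10.1 CPM outside it, lower in plain CPM in 8 of 8 libraries, and a fitted value of 0.19 (edgeR adjusted p = 0.160). Tap2 was called at 0.30 (edgeR adjusted p = 0.0438). Without scaling factors 7 members were called, where 11.1% of genes were called higher and 46.5% lower. The median of all genes was -0.50 there, and Tap2 turned to -0.080 (edgeR adjusted p = 0.996). It was also lost in 6 of the 8 fits that left out 1 library, with an edgeR adjusted p of 0.0565 to 0.145, and kept only without the GFP- cells of mouse 2 or the MLCs of mouse 4. The class cells were deeper than the others in 7 of 8 libraries. The exception was the GFP- cells of mouse 4, with a median of 844 UMIs against 926. The gap varied widely, from 7527 against 2305 in MLCs and 7759 against 1025 in GFP- cells of mouse 2 to smaller ones in mouse 19. There it was 1314.5 against 1054 in MLCs and 963 against 954 in GFP- cells. Among cells with at least 2000 UMIs, 8 members were called, where 17.9% of genes were called higher. With 1 library per mouse, 8 members were called in MLC libraries alone and 8 in GFP- libraries alone, against 16.2% and 18.3% of genes called higher. Dendritic cell markers were higher in the class for 5 of 5 tested and microglia markers lower for 8 of 8, and their part in the result was not tested.

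**Figure D5:**
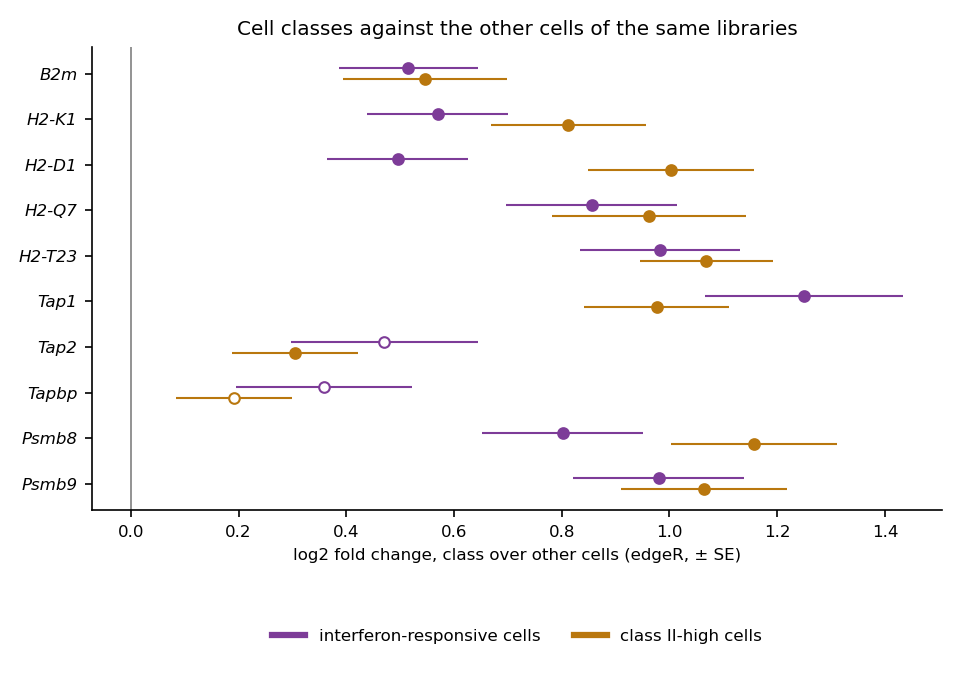
Log2 fold change with its SE (edgeR, x axis) of each gene in interferon-responsive cells and in class II-high cells over the other cells of the same 8 libraries; filled points have an adjusted p under 0.05. Tap1 leads in interferon-responsive cells (1.25), Psmb8 in class II-high cells (1.16), and Tapbp is unfilled in both.

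Leaving class II-high cells out of all libraries left 7 members called higher between the sorts, among them B2m (0.64), H2-D1 (0.69) and Psmb9 (0.83), where 17.2% of genes were called higher. In i.v. mice it left 5 called higher (B2m, H2-K1, H2-D1, Psmb8 and Psmb9), against 14.5% of genes. The members' median difference between i.v. and i.c.v. MLCs was 0.49 with these cells and 0.17 without them. Without cells carrying markers of other lineages, 7 members were called higher between the sorts, against 16.9% of genes, and 8 in i.v. mice, against 17.7%.

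The naive libraries give the levels around the microglia. Naive microglia held 1947 CPM of B2m (95% exact Poisson interval 1861 to 2036, counting error only), 1276 CPM of H2-D1 (1207 to 1349) and 917 CPM of H2-K1 (858 to 979), within the range of the GFP- libraries for each of the 3 genes under this filter. PBMCs held 2071 CPM of B2m (2017 to 2127), 2486 CPM of H2-D1 (2426 to 2547) and 1619.6 CPM of H2-K1 (1571 to 1669), and both heavy chains stood above every treated library. These PBMCs were a mix. The 72 cells with monocyte markers only held 1251 CPM of H2-K1 (1168 to 1338) and 2255 CPM of H2-D1. The 110 cells with B cell markers only held 1541 CPM of H2-K1 and 1818 CPM of H2-D1 (1727 to 1913). The first H2-K1 value and the second H2-D1 value lay within the range of the treated libraries. Tap1 ran from 39.6 to 63.5 CPM in the treated libraries and stood at 87.0 CPM (76.1 to 99.1) in PBMCs and 37.5 CPM (26.4 to 51.6) in naive microglia. Tapbp was higher in naive microglia (227 CPM, 198 to 258) and PBMCs (219 CPM, 201 to 238) than in any treated library. The naive microglia library was shallow, with a median of 425 UMIs per cell. In its cells of the depth groups above, from the shallowest, Tapbp stood at 301, 182, 191 and 125 CPM. The highest GFP- libraries reached 198, 179, 169 and 138 CPM there. The naive values of the deepest groups rest on 22 and 28 cells.

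Brain cells other than microglia held little. Naive astrocytes had 95.9 CPM of B2m (87.4 to 105), 162 CPM of H2-K1 (151 to 173) and 82.0 CPM of H2-D1 (74.1 to 90.5). The naive neuron sort, whose cells carried mainly oligodendrocyte markers, had 61.3 CPM of B2m (53.6 to 69.8), 37.1 CPM of H2-K1 and 75.1 CPM of H2-D1. H2-Q7 had 0 UMIs there, which allows up to 0.807 CPM (3 counts, a one-sided limit for counting error only). Summed over the 10 genes, the order ran from the neuron sort (216 CPM) and astrocytes (433 CPM) over GFP- cells (4678 to 5226 CPM) and naive microglia (5215 CPM) to i.c.v. MLCs (5559 and 5996 CPM), i.v. MLCs (6854 and 7436 CPM) and PBMCs (7441 CPM). The place of the naive libraries in this order depended on the filter on cells. Over all barcodes naive microglia (4595 CPM) lay below every GFP- library (lowest 4614 CPM) and PBMCs (5864 CPM) below both i.v. MLC libraries (6715 and 7375 CPM). With a stricter filter (500 genes or more, no more than 5% of UMIs mitochondrial) naive microglia (6081 CPM) lay above every GFP- library (highest 5286 CPM), and PBMCs (8224 CPM) above every MLC library (highest 7605 CPM). With 1 naive library each, taken from a younger mouse, these are values with no test.

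How the members varied together was described by Pearson's r of log2(CPM + 1) over the 8 treated libraries after removal of each sort's mean. The libraries share depth and composition, so no p is given. The 45 pairs ranged from -0.18 to 0.97 with a median of 0.39. Psmb8 and Psmb9 had r = 0.97, H2-K1 and H2-D1 0.88, H2-K1 and H2-Q7 0.82, and Tap2 and Tapbp 0.83, while Tap2 and Tap1 had 0.37. Among 5960 genes with a mean of at least 20 CPM, those most alike were Nedd8 (0.990), Mt1 (0.979) and Slirp (0.975) for B2m, Dapk1 (0.966), Ccnd1 (0.945) and Psma1 (0.945) for H2-K1, and Thoc7 (0.968), Arpp19 (0.966) and Nubp1 (0.960) for Tap1.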

How the data were processed

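Single-cell 3′ RNA libraries were made by the authors with 10x reagents. Per the file headers the deposited matrices hold raw UMI counts per gene and barcode, made with Cell Ranger 3.1.0 on mm10, and no normalization precedes them. How ambient RNA and doublets were treated is not given in the sources used here, and no doublet caller was run. Members and gene lists were chosen with earlier results of these data known.

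The filter on cells (200 genes or more, no more than 10% of UMIs mitochondrial) passed 27439 of 31104 treated barcodes. UMIs were summed per library (4970758 to 16514669 in treated libraries). Sums were tested with edgeR 4.0.16 (quasi-likelihood, TMM, filterByExpr, Benjamini-Hochberg) in R 4.3.3, and with DESeq2 1.42.0 as an alternative. The sorts were compared over 4 and 4 libraries without a block. Route and interaction contrasts were taken from 1 fit with 4 groups, and the cell classes were compared with the library as a block. Cells were thinned to 500 UMIs for cell classes. Both sorts of a mouse come from 1 animal, which pairs them, and deviations of these pairs correlated at -0.33 to 0.25. The 8 treated libraries come from 4 mice, 2 per mouse, and the tests count libraries, so that cell-class tests over 8 libraries take both libraries of a mouse as separate. The fits were tested on simulated data. Named genes of a list are the 4 with the smallest p in the comparison of the sorts, and genes alike are the 3 with the highest r for B2m, H2-K1 and Tap1. The values of 1 list gene are not reported here. Alternatives were left-out libraries, other filters, scalings, blocks and covariates, and fits by cell depth and without scaling factors were chosen after seeing the data.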

Additional observations from a re-analysis of the deposited data

Results flagged for a closer look

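H2-D1 in the GFP- libraries was flagged because 1 of the 4 values stood apart from the rest. The GFP- cells of i.c.v. mouse 4 held 1363 CPM and the nearest other library 1173 CPM, a gap of 0.837 of the whole range, above Dixon's critical value for 4 samples. Of 24 groups of 4 libraries tested, 1 was flagged, and chance flags about 1 in 20. This library also had the highest neutrophil markers of the treated libraries (5937 CPM), whose part in the value was not tested. Leaving out 1 library at a time, H2-D1 was called between the sorts in 8 of 8 fits, with a log2 fold change of 0.71 to 0.90.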

How the results depend on the processing

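Of the alternatives to the main comparisons, 159 kept their direction and side of the threshold, 19 were weaker, 6 stronger and 3 moved. Between the sorts 7 members were called, against 4 in cells with at least 2000 UMIs, 0 in cells with under 2000 and 1 after thinning to 500 UMIs. Over all genes, 16.6%, 4.94%, 8.72% and 6.19% were called higher in these fits, in the same order. Under 2000 UMIs the log2 fold change turned to -0.17 for B2m, -0.12 for Psmb8 and -0.30 for H2-T23, and in i.v. mice to -0.17 for H2-T23. In i.v. mice 8 became 0 under 2000 UMIs, 2 after thinning and 5 without class II-high cells. Between MLCs of the routes 0 became 2 with DESeq2, 2 with no filter on low counts and 2 with recipient sex as a covariate. All genes were called higher at 2.12%, 2.87% and 3.31% in these fits. With the mouse as a block, 0 became 1 in i.c.v. mice and 2 in the interaction, where DESeq2 called 1, H2-T23 was lost between the sorts, and no other call of a member in these comparisons changed. In interferon-responsive cells 8 became 3 at a threshold of 5 UMIs, 3 in GFP- libraries alone and 4 with no replicate block. All genes were called higher at 2.49%, 2.10% and 2.27% in these fits. Without scaling factors Tap2 turned to -0.080 in class II-high cells. The proteasome ratio differed by 0.15 under 2000 UMIs and by 0.40 over pairs with the mouse as a block (exact permutation p = 0.125). Without 1 library it ranged from 0.35 to 0.44 (exact permutation p = 0.0571, the smallest that 3 against 4 allow). Class I UMIs per 1000 differed by 1.79 at 1000 drawn UMIs and 0.741 at 500. The naive microglia sum was 4595 CPM over all barcodes and 6081 CPM with the stricter filter. The cause of these changes was not tested.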
